A study of Mus musculus with 30 samples.

Results

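The translation factors measured in stressed mouse embryonic fibroblasts (MEFs) were taken as the genes whose symbol on the array begins with Eif, Eef or Gspt, with names that begin with Eif2s3 left out. This gave 56 of the 21689 named genes, read by 124 of the 33453 named probes. The array uses old symbols, and 17 of the 56 members now carry another name. Eif2c1 to Eif2c4 are now Ago1 to Ago4, the Argonaute proteins of RNA silencing, which are no translation factors although the symbol took them in. The Eif3s names are subunits of eIF3 (Eif3s10 is now Eif3a, Eif3s9 Eif3b, Eif3s8 Eif3c, Eif3s7 Eif3d, Eif3s6 Eif3e, Eif3s1 Eif3j1 and Eif3s12 Eif3k), and Eif1ay is now Eif1ax. No probe on the array carried the symbol Eif2ak2, and a probe of that gene under an older symbol would not have been taken in.

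Immortalised wild type MEFs and MEFs that lack p38α (p38α-/-), the stress-activated protein kinase (SAPK) encoded by Mapk14, were grown exponentially and stressed, and their RNA was hybridised to 30 arrays with 2 arrays in each of 15 groups. The 11 wild type groups were anisomycin (25 ng/ml, 45 min), which inhibits peptide bond formation, the cytokine TNFα (100 ng/ml, 45 min), and NaCl (100 mM) for 45 min, 2 h or 8 h, each with and without the p38 inhibitor SB203580, and SB203580 alone. The 4 p38α-/- groups were untreated, anisomycin (25 ng/ml, 45 min), TNFα (100 ng/ml, 45 min) and NaCl (100 mM, 2 h). Each array set its sample, in Cy5, against a common pool, in Cy3, made from 2 wild type cultures that had no treatment, and the dyes were never swapped. A level is therefore a log2 ratio to that pool, for which 0 means equal to untreated wild type cells and 1 means 2-fold higher. The pool was the only untreated wild type RNA, so a test of a ratio against 0 leaves out the spread between control cultures, and a constant preference of a probe for either dye stays in it. In a difference between stressed groups the pool cancels. The preference of a probe cancels only where the same probes of a gene entered its mean on the arrays compared. The treatment protocol gives SB203580 as 10 µM from 30 min before the stress, while the sample titles give 10 mM and 2 h. The study's supplement lists the NaCl treatment of p38α-/- cells at another time than the 2 h of the labels, and each genotype is a cell line of its own rather than a set of animals.

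Translation begins when eIF2, charged with GTP and the initiator tRNA, joins the small ribosomal subunit together with eIF1, eIF1A, eIF3 and eIF5. The cap-binding complex eIF4F, built of the cap-binding protein eIF4E, the helicase eIF4A and the scaffold eIF4G, brings the mRNA, and eIF5B joins the large subunit. eIF2B recharges eIF2, kinases of the Eif2ak family block that recharging under stress by phosphorylating eIF2α, and the 4E-BPs hold eIF4E away from eIF4G. Elongation is carried by eEF1, which delivers aminoacyl-tRNA, and by eEF2, which moves the ribosome and is inhibited by its kinase Eef2k. Termination needs eRF1 (Etf1) together with eRF3 (Gspt1 or Gspt2). Hyperosmotic stress and anisomycin are both known to activate p38 and to slow translation. Most of that control is by phosphorylation, which arrays of mRNA do not measure.

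Of the 124 member probes 59 lay in the brightest of 4 equal classes of probes, where the scanner software marked 45.1% of all spots as outliers, against 0.294% in the dimmest. Marked spots were left out, which removed 29.7% of the members' spots on the average array (8.06% to 57.3%) against 19.8% over all probes. Between 30 and 52 members could then be tested in each comparison, and Eif3s3, Eif3s4 and Eif5a2 in none. The probe for Mapk14 lay between 0.03 and 1.31 in wild type arrays and between -2.24 and -0.94 in p38α-/- arrays. All 10 fibroblast markers were well above background on the 30 arrays in both channels, and so were all 8 leukocyte and all 3 epithelial markers, while 3 of 5 endothelial markers were so in Cy5 (Cdh5 on 28 arrays and Tie1 on 26). Signal of a marker probe above background does not show that such cells were present.

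The time course of osmostress was examined first, as the difference between 2 h and 8 h of NaCl in wild type MEFs, in which the pool cancels. At 8 h the release factor Gspt1 was 2.14-fold higher than at 2 h, a log2 difference of 1.10 ± 0.27 (SE, n = 2 arrays per group, limma adjusted p = 0.0168). The elongation factor subunit Eef1g fell by 0.54 ± 0.13 (adjusted p = 0.0184), and Eefsec, which delivers selenocysteine, fell by 0.50 ± 0.13 (adjusted p = 0.0186). These were the 3 called members of 43 tested (1 higher and 2 lower), against a background of 3.34% of all genes called higher and 4.47% called lower, so the members' share of calls in both directions together was no higher than that of all genes. At an unadjusted p under 0.05 there were 13, beside 2998 of all 15577 genes. The count became 5 with the array number as a block, beside 741 higher and 1005 lower of all 15577 genes. It was 1 without either NaCl 2 h array, 0 without NaCl 8 h replicate 1 and 2 without NaCl 8 h replicate 2, with the lone array of a group then assumed to vary like the other groups.

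The levels on the single arrays show how these 3 moved. Gspt1 was at 0.02 and -0.39 on the NaCl 2 h arrays and at 0.83 and 0.99 at 8 h, so the groups did not overlap. Eef1g was slightly above the pool at 2 h (0.12 and 0.17) and below it at 8 h (-0.46 and -0.32). Eefsec lay at 0.22 and 0.01 at 2 h and at -0.45 and -0.33 at 8 h. The Eef1g level rested almost wholly on probe A_51_P401471, since its other probe, A_52_P609138, was kept on only 4 of the 30 arrays. With marked spots kept, that other probe read 0.23 and 0.24 at 2 h and -0.24 and 0.30 at 8 h, and the Eef1g difference was then -0.37 (adjusted p = 0.202). The series matrix gave -0.32 (adjusted p = 0.186), so the Eef1g call was lost under both. Since total RNA of a whole culture was measured, fewer cells that carry a transcript and less of it per cell cannot be told apart.

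The same difference was taken in the cells pretreated with SB203580. There 4 of 40 members were called (9 at an unadjusted p under 0.05), against 7.32% of all genes. Of all 15978 genes 2899 had an unadjusted p under 0.05. With the array number as a block, 720 of them were called higher and 903 lower. Eefsec fell by 0.57 (adjusted p = 0.00936), Eef1g by 0.45 (adjusted p = 0.0476) and Eif2c4 (Ago4) by 0.39 (adjusted p = 0.0243). Eif2ak3, the kinase PERK that phosphorylates eIF2α, rose by 0.52 (adjusted p = 0.0101). The count was 7 with the array number as a block, 2 without the first SB203580 NaCl 2 h array and 0 without any other of the 4 arrays in turn.

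Averaging both arms used 4 arrays at each time and was added after the data had been seen. It called 9 of 52 members (20 at an unadjusted p under 0.05), 6 higher at 8 h and 3 lower, against 5.95% of all genes higher and 8.17% lower. The members' share higher was thus 6 of 52 and their share lower 3 of 52. Of all 19581 genes 4905 had an unadjusted p under 0.05. Gspt1 rose by 0.69 ± 0.19 (SE; adjusted p = 0.0196), which is 1.62-fold. Eef1a2, the eEF1A form typical of muscle and neurons, rose by 0.54 ± 0.12 (adjusted p = 0.0109). Eif2s1, the α subunit of eIF2, rose by 0.52 ± 0.16 (adjusted p = 0.0380), the eIF4E-binding protein Eif4ebp3 by 0.49 ± 0.13 (adjusted p = 0.0186), the eIF3 subunit Eif3s10 by 0.39 ± 0.12 (adjusted p = 0.0360) and Eif2ak3 by 0.34 ± 0.08 (adjusted p = 0.0078). Eefsec fell by 0.54 ± 0.09 (adjusted p = 0.000468), Eef1g by 0.50 ± 0.10 (adjusted p = 0.00145) and Eif2c4 by 0.22 ± 0.07 (adjusted p = 0.0449). No other member passed, and 44 of the 52 differed by less than 0.5 in either direction.

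**Figure D1:**
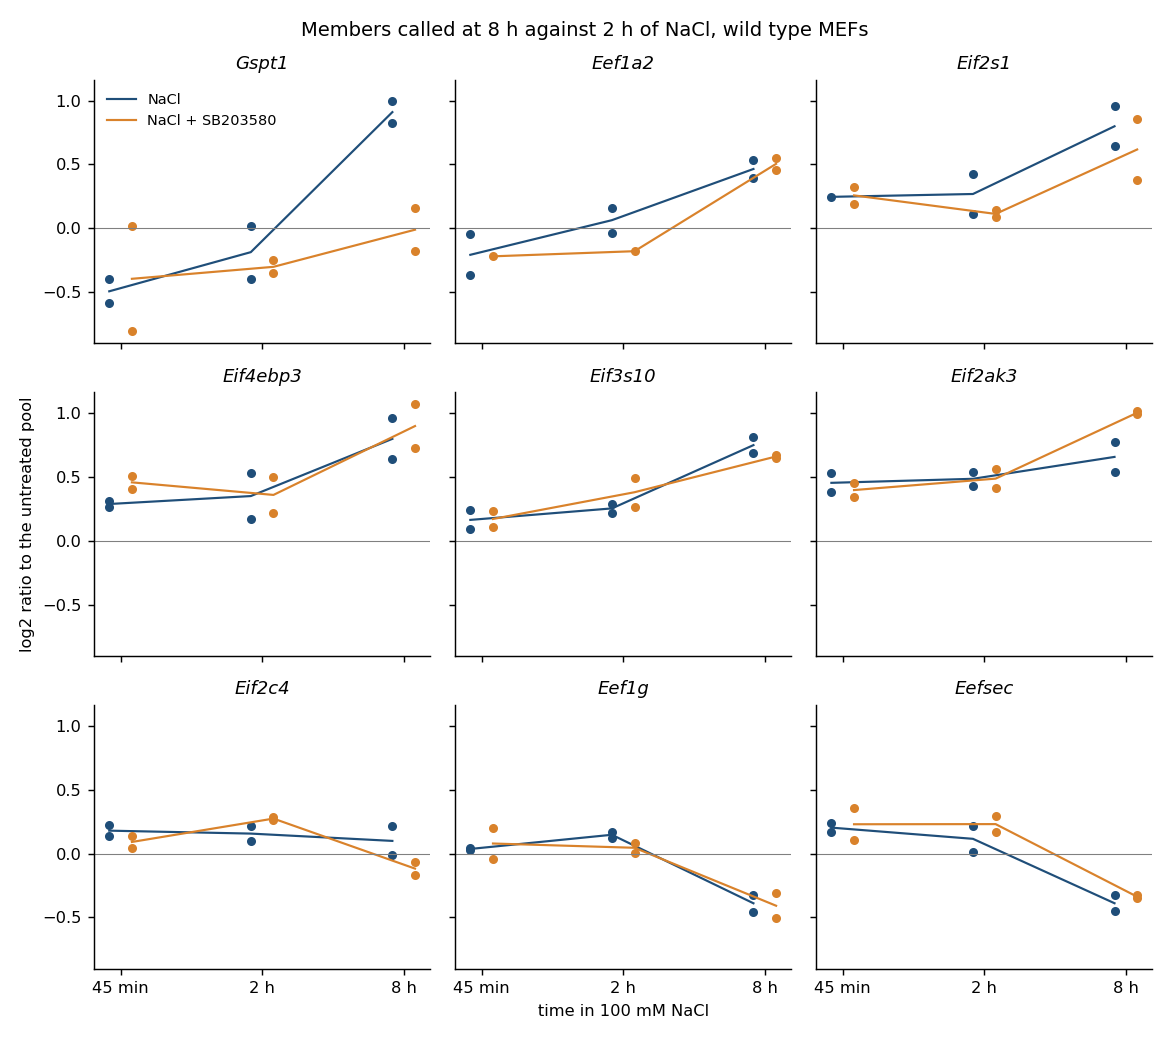
Log2 ratio to the untreated pool (vertical axis) of the 9 members called between 8 h and 2 h over both arms, at 45 min, 2 h and 8 h of 100 mM NaCl (horizontal axis) in wild type MEFs. Points are single arrays, lines join group means, blue is NaCl and orange NaCl with SB203580. Eefsec and Eef1g drop below the pool at 8 h in both arms, and Gspt1 at 8 h lies between 0.83 and 0.99 without SB203580 and between -0.18 and 0.16 with it, where the -0.18 is its lower-reading probe alone.

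Of these 9 members 3 kept their call under every other setting counted that could test them, from the background correction to leaving out 1 array. These were Eefsec (14 alternatives, between -0.59 and -0.47), Eif2ak3 (14 alternatives, between 0.29 and 0.40) and Eef1a2 (13 alternatives, between 0.49 and 0.59). Eef1a2 could not be tested without the only SB203580 NaCl 2 h array that measured it. Each of the 3 is read by 1 probe, so taking the brightest probe could not change their values and no other probe checks them. Centring each probe on its own mean first was not among the settings counted. Eefsec was at -0.35 and -0.33 at 8 h with SB203580, close to its levels without the inhibitor, and at 0.17 and 0.29 at 2 h. Eef1a2 was at 0.16 and -0.03 at 2 h and at 0.39 and 0.54 at 8 h, while with SB203580 it was at -0.18 on the 1 array measured at 2 h and at 0.46 and 0.55 at 8 h. Eif2ak3 was above the pool at every time, at 0.54 and 0.43 at 2 h, 0.77 and 0.54 at 8 h, and with SB203580 at 0.56 and 0.42 at 2 h and 0.99 and 1.02 at 8 h. Without SB203580 its lower 8 h array was level with its higher 2 h array, and with SB203580 the times lay apart.

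The other calls did not hold in every alternative. The Eef1g call was lost with the series matrix (-0.28, adjusted p = 0.060) and with marked spots kept (-0.33, adjusted p = 0.059). That of Gspt1 was lost with normexp (0.43, adjusted p = 0.061), with its brightest probe (0.54, adjusted p = 0.212) and without any of 4 arrays. Without NaCl 2 h replicate 2 there were 4 calls, without NaCl 8 h replicate 2 there were 5, without SB203580 NaCl 2 h replicate 1 there were 4, and with the array number as a block there were 15 of 50. Over all genes that block called 1485 higher and 2017 lower of 19076. Eif2s1 was at 0.42 and 0.11 at 2 h and 0.64 and 0.96 at 8 h, and with SB203580 at 0.14 and 0.08 and then 0.38 and 0.86. Its call was lost with marked spots kept and without any of 5 arrays, among them both SB203580 2 h arrays. Eif4ebp3 was at 0.53 and 0.17 at 2 h and 0.64 and 0.96 at 8 h, with SB203580 at 0.22 and 0.50 and then 0.73 and 1.07, and its call was lost without any of 4 arrays. Eif3s10 was at 0.22 and 0.29 at 2 h and 0.81 and 0.69 at 8 h, with SB203580 at 0.50 and 0.27 and then 0.65 and 0.67. Its call held in only 3 of 14 alternatives, and was lost with normexp, the series matrix, the brightest probe and marked spots kept, and without any of 7 of the 8 arrays. The call of Eif2c4 held in 4 of 14 alternatives and rested on probe A_52_P27117, which alone fell by 0.95 (adjusted p = 0.00173), while probe A_52_P17422 alone differed by 0.02. Probe A_52_P27117 was well above background in Cy5 on 25 of the 30 arrays. The Eif2c4 call was lost with spots well above background only.

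A direct test of the difference between the arms called no member (0 of 52 by limma, 3 at an unadjusted p under 0.05), and 0% of all genes. Of all 19581 genes 570 had an unadjusted p under 0.05. For Gspt1 the 8 h over 2 h difference was smaller by 0.81 ± 0.38 with SB203580 (unadjusted p = 0.0498, adjusted p = 1), and for Eif2ak3 it was larger by 0.34 (unadjusted p = 0.0479, adjusted p = 1). Gspt1 with SB203580 was at -0.35 and -0.25 at 2 h and at 0.16 and -0.18 at 8 h. These gene means mix probe sets, because the higher-reading probe A_51_P440004 was left out on NaCl 2 h replicate 2 and on SB203580 NaCl 8 h replicate 2. Taken probe by probe with marked spots kept, the difference between the arms was -0.77 ± 0.36 for A_51_P440004 and 0.19 ± 0.52 for A_52_P354785 (both adjusted p = 1), so the 2 probes gave opposite signs. The 95% half-width of these differences had a median of 0.70 over the 52 members.

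Between 45 min and 2 h of NaCl no member was called (0 of 33 by limma, 1 at an unadjusted p under 0.05), nor over both arms (0 of 49, 5 at an unadjusted p under 0.05), where all genes gave 0.0540% and 0.992%. Unadjusted, all genes gave 767 of 12968 and, over both arms, 1949 of 18856. All 33 members tested without SB203580 differed by less than 0.5. The array number as a block gave 1 member call over both arms, beside 153 higher and 191 lower of all 18565 genes. Leaving out SB203580 NaCl 45 min replicate 1 also gave member calls.

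The release factors were looked at by probe, since the probes of Gspt1 disagreed by over 1 log2 unit. On the NaCl 2 h arrays probe A_51_P440004 of Gspt1 read 0.76 and 0.48 and probe A_52_P354785 read -0.72 and -0.39, with marked spots kept. At 8 h they read 1.39 and 2.02, and 0.27 and -0.03. The spot of probe A_51_P440004 on NaCl 2 h replicate 2 was marked as an outlier, so the gene's mean there rests on the lower probe alone. With each probe centred on its own mean first, the Gspt1 difference was 0.87 (adjusted p = 0.0394) in place of 1.10. With marked spots kept, probe A_51_P440004 rose by 1.08 ± 0.25 from 2 h to 8 h (adjusted p = 0.0119), and probe A_52_P354785 by 0.67 (adjusted p = 0.372). Over both arms the 2 probes gave 0.70 (adjusted p = 0.0114) and 0.77 (adjusted p = 0.0579).

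Gspt2, the intronless copy of eRF3, rose by 1.11 ± 0.24 on probe A_51_P301394 (marked spots kept, adjusted p = 0.00733), from 0.66 and 0.32 at 2 h to 1.37 and 1.84 at 8 h. That probe and probe A_51_P440004 of Gspt1 differed by at most 0.308 on the 30 arrays, with a median of 0.146. The sequences of these 2 probes were not compared, so their readings cannot be assigned to either gene with certainty. The other Gspt2 probe, A_52_P647408, was at -0.10 and -0.04 at 8 h and was not well above background in either array of SB203580 with NaCl 2 h. Etf1 (eRF1), the partner of eRF3 and no member by its name, was at 0.13 and -0.26 at 2 h and 1.38 and 1.61 at 8 h, a difference of 1.57 ± 0.20 (adjusted p = 0.000137). With SB203580 it rose by 0.94 (adjusted p = 0.00768), to 0.91 and 1.06. For Etf1 and for both look-alike eRF3 probes, every 8 h array of an arm lay above every 2 h array of that arm.

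**Figure D2:**
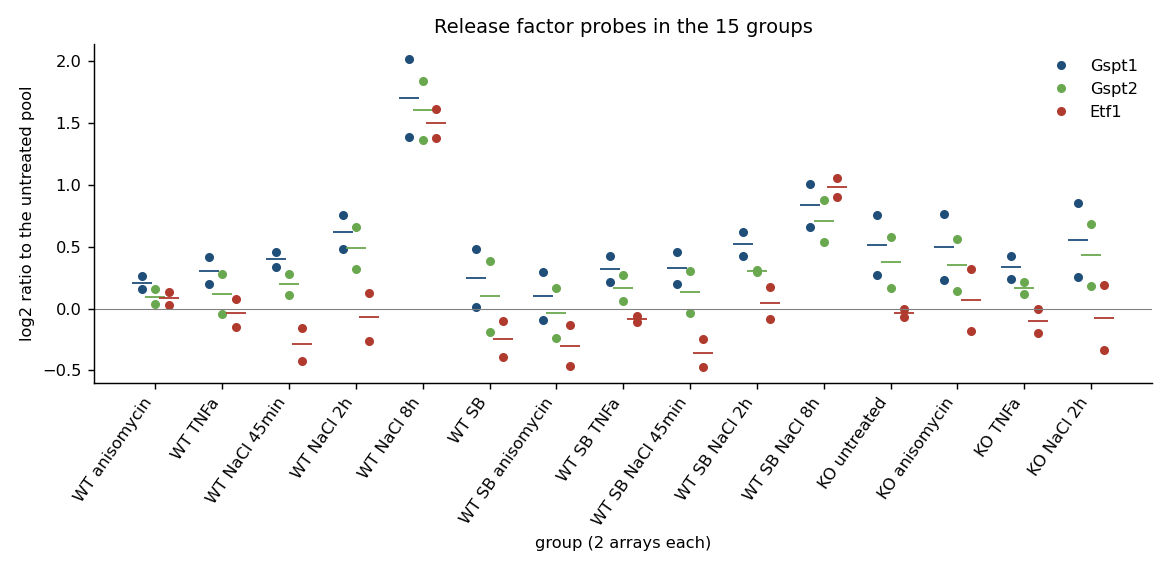
Log2 ratio to the untreated pool (vertical axis) of 1 probe each of Gspt1 (A_51_P440004), Gspt2 (A_51_P301394) and Etf1 in the 15 groups (horizontal axis, 2 arrays each, marked spots kept). Points are arrays and dashes are group means. All 3 are highest in NaCl 8 h, where the points lie between 1.37 and 2.02, with SB203580 NaCl 8 h lower, between 0.53 and 1.06.

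Across roles the members did not move as a block. Of the 4 eIF4E-binding members (Eif4ebp1 to Eif4ebp3 and the eIF4E transporter Eif4enif1) all had a positive 8 h minus 2 h difference over both arms, with a median of 0.35, but only Eif4ebp3 was called. Eif4ebp1 gave 0.39 ± 0.21 (adjusted p = 0.275) and Eif4ebp2 0.32 ± 0.23 (adjusted p = 0.452). None of the 9 cap-binding and helicase members was called, with Eif4a2 at 0.58 ± 0.20 (adjusted p = 0.0846), Eif4g3 at -0.37 ± 0.12 (adjusted p = 0.0623) and the cap-binding protein Eif4e at 0.26 ± 0.18 (adjusted p = 0.428). Of 10 eIF3 subunits tested 1 was higher and none lower, and their median was -0.10. eEF1 had 1 called higher (Eef1a2) and 1 called lower (Eef1g) of 6. The 2 eIF2 subunits were both positive, with 1 called, and none of the 4 eIF2B subunits was called. Eef2 gave -0.48 ± 0.78 (adjusted p = 0.796) and Eef1a1 -0.68 ± 0.38 (adjusted p = 0.291), intervals too wide to place either gene. The median of all genes in this difference was -0.0007.

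Probe by probe, 44 of the 124 member probes (35.5%) were higher at 8 h than at 2 h in all 4 pairs of same-numbered arrays, and 15 (12.1%) were lower in all 4, with marked spots kept. Over all named probes the shares were 19.3% and 17.6%. Among 103 member probes tested alone, 9 were called higher and 5 lower, against 13.0% of all probes in either direction. Probes called higher included Eif4g2 A_52_P41668 (0.88), Eif4e2 (0.54) and Eif4ebp1 A_52_P283674 (0.41). Probes called lower included Eif5b A_51_P182443 (-0.56) and Eif4g3 (-0.40). For these 5 genes the mean over probes was not called.

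Other parts of the translation apparatus are given for the same both-arm difference. Of 75 cytosolic ribosomal protein genes tested 1 was higher and 9 were lower at 8 h, and their median was -0.25. Of 17 aminoacyl-tRNA synthetases Cars was higher (0.60) and Dars lower (-0.56). Of 9 genes of termination, recycling and poly(A) binding Etf1 was higher (1.25) and Paip1, which bridges poly(A)-binding protein and eIF4A, was lower (-0.66). Of 7 mitochondrial translation factors Gfm1 (-0.56), Mtif2 (-0.65) and Tsfm (-0.38) were lower and none was higher. Of 13 regulators that signal to translation, Ppp1r15b, which directs dephosphorylation of eIF2α, was higher (0.57), Tsc1 was higher (0.59), and Dhps, which makes the hypusine of eIF5A, was lower (-0.53). Of 10 targets of eIF2α phosphorylation signalling Atf3 was lower (-1.09). Atf3 and Dars were each measured on only 1 array at 8 h in each arm, and Dhps on 1 at 8 h without SB203580. Of the marker lists, no fibroblast marker of 9 was called, while Itgam (0.25) was higher and Cd68 (-0.28) and the endothelial Tek (-0.49) were lower; their part in the members' differences was not tested.

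Against the untreated pool, NaCl for 8 h held the most called members. At an unadjusted p under 0.05 there were 23 of 45 members tested, beside 5374 of all 16378 genes. Of the 45 members 14 were called higher and 3 lower, against 11.0% of all genes higher and 11.2% lower. The largest were Gspt1 at 0.91 (adjusted p = 0.00199), Eif4ebp3 at 0.80 (adjusted p = 0.000344), Eif2s1 at 0.80, Eif1a, which scans for the start codon, at 0.78, Gspt2 at 0.77, Eif3s10 at 0.75 (adjusted p = 0.000185), Eef1e1, a component of the multi-synthetase complex, at 0.74, and Eif3s1 at 0.73. Eif2ak3 at 0.66 had the smallest adjusted p, 2.4e-05. Both eIF2 subunits were higher (Eif2s2 at 0.64), as were 3 of 8 eIF3 subunits. Eif4e (0.66), Eif4a1 (0.48), Eef1a2 (0.46) and Eif3s9 (0.40) completed the 14. The Eif3s9 call rested almost wholly on probe A_51_P371162, since probe A_52_P414692 (median -0.57) was kept on only 1 of the 30 arrays. The Eif3s9 call was lost with the series matrix, with marked spots kept and without NaCl 8 h replicate 2. Over the alternatives its value went down to 0.11. The 3 lower members were Eif2ak4, the kinase GCN2 that senses uncharged tRNA (-0.41), Eefsec (-0.39) and Eef1g (-0.39). None of the 4 Argonautes was called. The count was 11 without NaCl 8 h replicate 1 and 6 without replicate 2. Of 70 ribosomal protein genes 28 were higher than the pool and none lower.

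In the other wild type groups, fewer members were called. With anisomycin 4 of 36 were (2 higher and 2 lower, 12 at an unadjusted p under 0.05, background 12%): Eif2s2 at 0.70, Eif4e at 0.68, the cap-binding relative Eif4e3 at -0.55 and Eif5a, which carries hypusine and helps stalled ribosomes, at -1.48 (adjusted p = 0.00376). With TNFα it was 1 of 35 (9 unadjusted, background 11.0%), the scaffold Eif4g1 at -0.74 (adjusted p = 0.00168), which was below the pool in every group. NaCl for 45 min gave 5 of 34 (13 unadjusted, background 9.88%): Eef1a1 at 1.25, Eif2ak3 at 0.46 (adjusted p = 0.00263), Eif4g1 at -0.67, Eif5a at -1.08 and Eef2 at -2.29. NaCl for 2 h gave 7 of 48 (14 unadjusted, background 9.92%): Eef1a1 at 1.36, Eif4a1 at 0.71 (adjusted p = 0.000649), Eif5 at 0.56, Eif2ak3 at 0.49, Eif2c3 at -0.35, Eif4g1 at -0.53 and the helicase cofactor Eif4b at -0.64. With the array number as a block the counts for anisomycin, TNFα and NaCl 45 min were 9, 5 and 10. Over all genes that block called 1729 higher and 1598 lower of 15712 with anisomycin. With TNFα it called 1469 higher and 1307 lower of 15364, and at NaCl 45 min 1474 and 1206 of 13276. Unadjusted, all genes gave 4447 of 15720 with anisomycin and 4010 of 15379 with TNFα. NaCl gave 3555 of 13296 at 45 min and 4685 of 18504 at 2 h. These comparisons share the pool, so a member called in several of them is not several independent results.

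SB203580 alone gave 9 of 36 (4 higher and 5 lower, 14 unadjusted) where 26.6% of all genes were called. Unadjusted, 5935 of all 15204 genes passed. The called members were Gspt2 at 0.87, Eif4ebp3 at 0.57, Eif3s1 at 0.50, Eif2ak3 at 0.35, Eif2c3 at -0.31, Eif2c2 at -0.46, Eif2b1 at -0.55, Gspt1 at -0.64 and Eif5a at -1.44. The look-alike probes of Gspt1 and Gspt2 described above, with marked spots kept, read 0.48 and 0.01, and 0.38 and -0.19, in this group. Their second probes, A_52_P354785 and A_52_P647408, were well above background in Cy5 on 28 and 23 of the 30 arrays. The Gspt1 call was lost with normexp, the series matrix and spots well above background only. That of Eif3s1 was lost with the series matrix and with marked spots kept, and that of Eif2c3 with normexp and spots well above background only. Untreated p38α-/- MEFs against the wild type pool gave 6 of 41 (9 unadjusted, background 15%): Eif5b at 0.63, Eef1g at 0.41, Eif2ak3 at 0.40, Eefsec at 0.33, Eif4g1 at -0.66 and Eif5a at -1.12. There 4876 of all 16890 genes had an unadjusted p under 0.05.

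**Figure D3:**
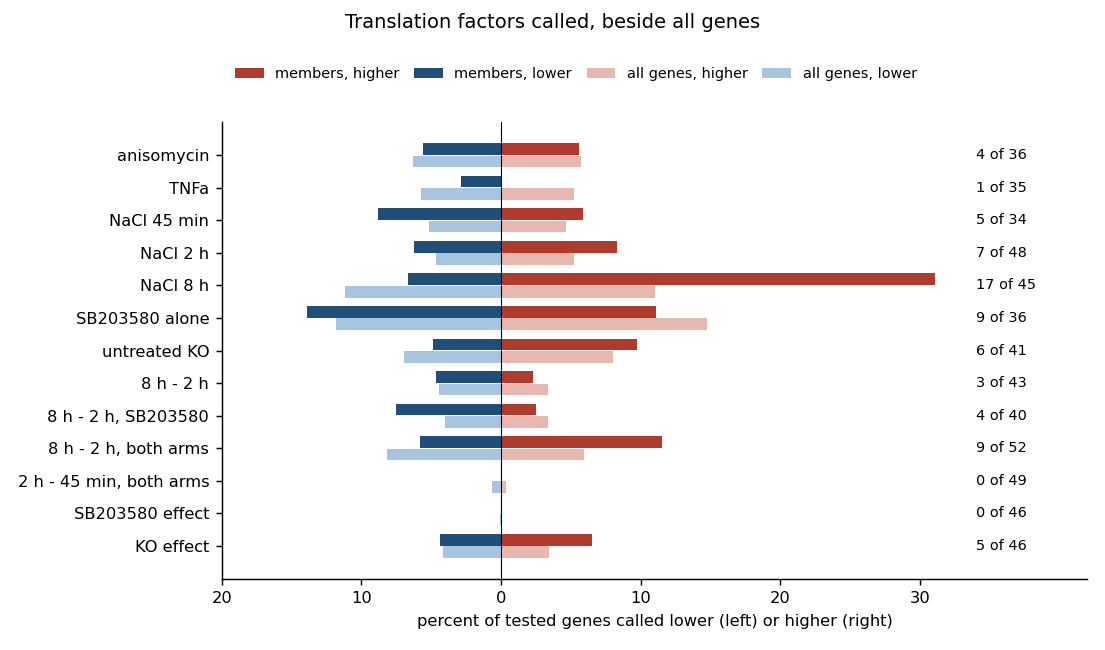
Percent of tested genes called (limma, Benjamini-Hochberg adjusted p under 0.05) lower, to the left, or higher, to the right, in 13 comparisons (vertical axis), for the translation factors (dark bars) and for all genes (pale bars), with the number of members called of those tested. The first 7 comparisons are against the pool, where NaCl 8 h has 17 of 45 called, and the inhibitor effect has 0 of 46.

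Several probes lay on the same side of the pool on nearly all arrays, where a constant preference of a probe for 1 dye and a true difference from the pool cannot be told apart. Of the 124 member probes 22 (17.7%) kept the same sign on all 30 arrays, 16 below the pool and 6 above, against 12.8% of all probes. Among the 39 members with several probes, 6 (15.4%) had probes whose medians over the arrays lay more than 1 log2 unit apart, against 5.67% of 8326 such genes. Eef2 had the widest gap, 2.35: probe A_52_P318631 had a median of -2.66 (-3.74 to -1.33) and was marked as an outlier on 21 arrays, while probe A_52_P605455 had a median of -0.31 (-0.95 to 0.47). The gene's level of -2.29 at NaCl 45 min and its levels of -0.18 and -3.43 on the 2 NaCl 8 h arrays depended on which of its probes were kept. Eif5a probe A_52_P48155 had a median of -1.32 (-2.85 to 0.22) and probe A_51_P120201 of -0.34 (-0.87 to -0.11), so both were mostly below the pool in every group, with p38α or without, stressed or not. Eif4b was below the pool on all 30 arrays with each of its 3 probes. Of the 2 Eif4g1 probes A_51_P384193 was below the pool on all 30 arrays (median -0.57) and A_52_P237704 on all but 1 (median -0.54), marked spots counted, and the TNFα call of Eif4g1 carries that limit.

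Eef1a1, the common form of eEF1A, shows a further limit. Probe A_51_P118765 was saturated in Cy3 on 27 arrays and in Cy5 on 22, in both arrays of 13 and of 8 groups. Its median was 0.96 (0.32 to 2.09), and that of the other probe, A_52_P299505, was -0.72 (-1.73 to 0.16). A saturated pool channel reads too low, so the true ratio may be lower than the one given, and the calls of Eef1a1 at 1.25 and 1.36 carry that limit. In NaCl 2 h the 2 probes averaged 1.74 and -0.15. The other members whose probes differed by over 1 in a wild type stress group were Eif3s6, Eif5b, Eif4e, Eif3s1, Eif2b4, Eif2c4, Eif4enif1, Eif4g2, Eif5, Gspt1 and Gspt2. For Eif4e at NaCl 8 h, probe A_51_P131895 averaged -0.46 and probe A_52_P310981 1.30. The only member not well above background with all its probes in a whole group was Eif2b3, in NaCl 45 min with and without SB203580 and in p38α-/- with NaCl.

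**Figure D4:**
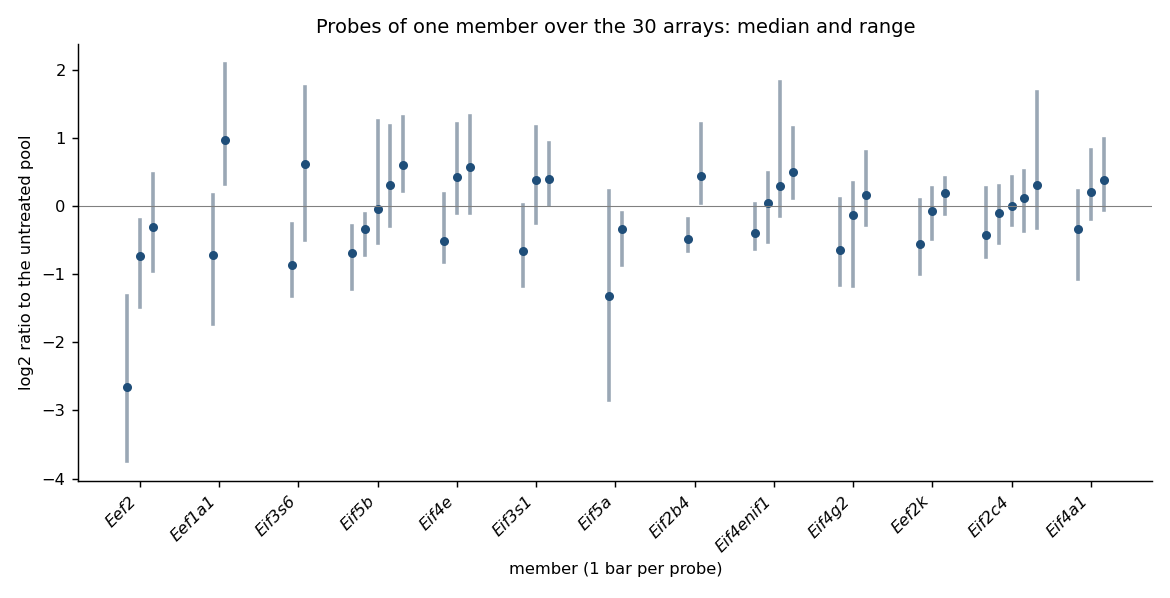
Median (point) and range (bar) over the 30 arrays of the log2 ratio to the untreated pool (vertical axis) for each probe of the 13 members whose probe medians lie more than 0.7 apart (horizontal axis, widest gap first). Eef2 spans medians from -2.66 to -0.31 and Eef1a1 from -0.72 to 0.96.

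The effect of the inhibitor was taken as stress with SB203580 minus the same stress without it, averaged over the 5 wild type stresses. No member was called (0 of 46 by limma, 3 at an unadjusted p under 0.05, adjusted p at least 0.839), where 0.0626% of all genes were. The 3 were Gspt1 at -0.39 ± 0.12 (unadjusted p = 0.0051), Eif2c1 at 0.16 ± 0.06 and Eif4a1 at -0.18 ± 0.07. Unadjusted, 765 of all 17579 genes passed. Of the 46 members 45 differed by less than 0.5, the exception being Eef2 at 0.81 ± 0.48. The median 95% half-width of these differences was 0.22. No setting tried, leaving out any of the 20 arrays included, called a member.

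The effect of the knockout was taken as p38α-/- minus wild type under the same stress, averaged over anisomycin, TNFα and NaCl 2 h. The scaffold Eif4g1 was higher in p38α-/- MEFs by 0.55 ± 0.12 (SE; 95% interval 0.31 to 0.80, adjusted p = 0.00858). Its partner in eIF4F, the helicase Eif4a1, was lower by 0.35 ± 0.09 (adjusted p = 0.0261), and Eif2s2, the β subunit of eIF2, by 0.59 ± 0.16 (adjusted p = 0.0340). The Argonautes Eif2c3 (0.28, adjusted p = 0.0432) and Eif2c1 (0.26, adjusted p = 0.0445) were higher. These 3 higher and 2 lower of 46 members (10 at an unadjusted p under 0.05) stood against 3.47% of all genes higher and 4.19% lower, and 44 of the 46 differed by less than 0.5. Of all 18316 genes 4499 had an unadjusted p under 0.05. Of the third eIF4F component, Eif4e, the difference was -0.30 ± 0.15 (adjusted p = 0.224).

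On single arrays, Eif4g1 was at -1.12 on the 1 array measured for wild type anisomycin, at -0.70 and -0.78 with TNFα and at -0.66 and -0.39 with NaCl 2 h. In p38α-/- MEFs it was at -0.27 and -0.53 with anisomycin, at -0.16 on the 1 array measured with TNFα and at -0.28 and -0.06 with NaCl. It was below the pool in both genotypes, less so in p38α-/- MEFs under stress, while untreated p38α-/- MEFs were at -0.88 and -0.43. Eif4a1 was at 0.28 and 0.28, 0.12 and 0.31, and 0.56 and 0.86 in the 3 wild type stress groups and at -0.01 and -0.34, 0.06 and 0.10, and 0.38 and 0.13 in the p38α-/- groups. Within each stress the genotypes did not overlap in these gene means, which mix probe sets. Probe A_52_P541826 of Eif4a1 (median -0.34) was marked on 14 of the 30 arrays. Its other probes, with medians of 0.21 and 0.39, were marked on 0 and 1. Eif2s2 was between 0.20 and 0.73 in the 6 wild type arrays. In p38α-/- MEFs the arrays of replicate 1 were at 0.29, 0.28 and 0.17 and those of replicate 2 at -0.14, -0.15 and -0.76.

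Those 2 sets of p38α-/- arrays were scanned on different days. All first wild type arrays shared a scan, all second wild type arrays shared another with the first p38α-/- arrays, and the second p38α-/- arrays were scanned on other days. With the scanning day as a block, which was added after the data had been seen, Eif2s2 differed by -0.16 (adjusted p = 0.385), Eif2c1 by 0.20 (adjusted p = 0.243) and Eif2c3 by 0.34 (adjusted p = 0.0564), while Eif4g1 (0.51, adjusted p = 0.0374) and Eif4a1 (-0.33, adjusted p = 0.0256) kept their calls. Within the shared day the values, with no test, were -0.21 for Eif2s2, 0.25 for Eif2c1, 0.36 for Eif2c3 and -0.34 for Eif4a1, and Eif4g1 was not measured in all its groups. The block called 6 members in all, 4 of which were not called without it: Eef1e1 (0.37), Eef1g (0.31), Eif3s8 (0.53) and Eif3s12 (-0.53). The share of all genes called with this block is not given here.

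Eif4g1 kept its call in the 16 alternatives counted that could test it (0.40 to 0.60), with centring the probes first not among them. It could not be tested with the brightest probe, nor without wild type anisomycin replicate 1 or p38α-/- TNFα replicate 1, each the only array that measured it in its group. Eif4a1 lost it with the brightest probe alone (-0.27), with marked spots kept (-0.21) and with probes centred first (-0.25, adjusted p = 0.079), and also without any of 6 of the 12 arrays: wild type anisomycin replicate 1, TNFα replicate 2 and NaCl replicate 2, and p38α-/- anisomycin replicate 2, TNFα replicate 1 and NaCl replicate 2 (-0.35 to -0.29, adjusted p 0.060 to 0.087). The count of 5 was 8 with the array number as a block, beside 1381 higher and 1555 lower of all 18137 genes. It fell to 0 without wild type anisomycin replicate 1, to 1 without p38α-/- anisomycin replicate 2, p38α-/- TNFα replicate 1 or p38α-/- NaCl replicate 2, to 2 without the second wild type anisomycin array, the first wild type TNFα array or either wild type NaCl array, and to 3 without the second TNFα array of either genotype. Of the other lists, Paip1 was higher in p38α-/- MEFs (0.69, 1 of 9), the stress target Ddit3 lower (-0.82, 1 of 8), and ribosomal proteins lower in 4 of 70. Ddit3 was measured on replicate 1 alone for wild type anisomycin and TNFα, and on replicate 2 alone in each p38α-/- stress group. These wild type and p38α-/- arrays shared no scanning day, so genotype and scanning day cannot be told apart for Ddit3. Of the markers, Col1a1 (0.50) and Thy1 (0.58), made by fibroblasts, were called higher, 2 of 8 tested, and the endothelial Kdr was lower (-1.59). Their part in the members' differences was not tested, and genotype and cell line cannot be told apart.

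**Figure D5:**
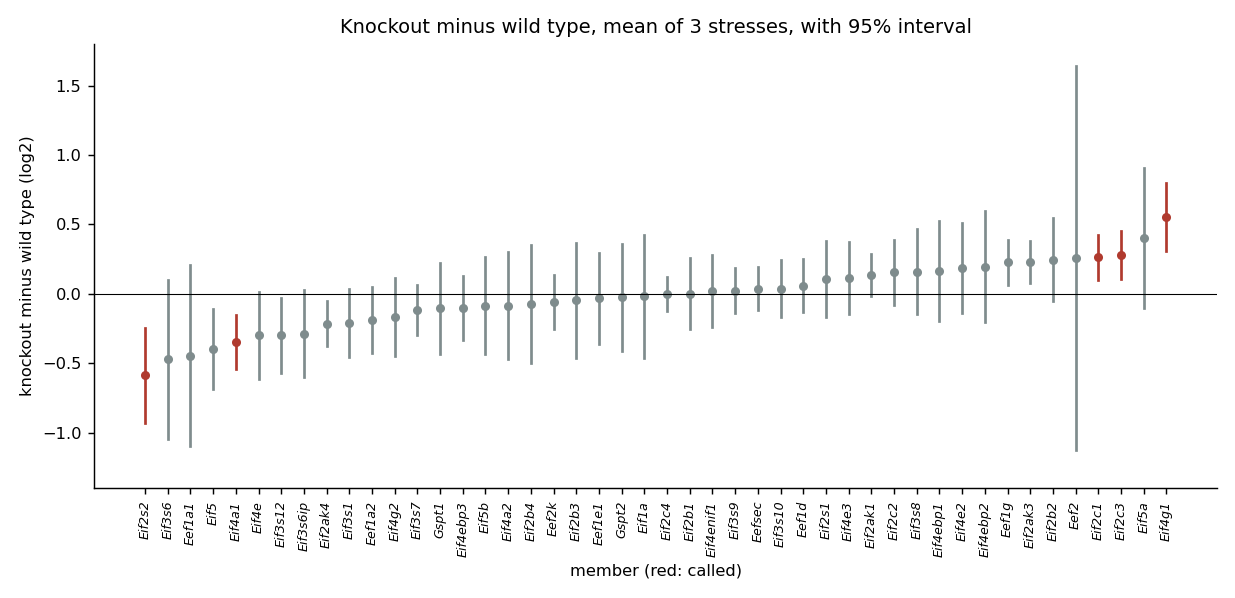
Difference of p38α-/- minus wild type MEFs (vertical axis, log2, mean over anisomycin, TNFα and NaCl 2 h) for the 46 tested members (horizontal axis, sorted), with 95% intervals from limma. Red marks the 5 called members, from Eif2s2 at -0.59 to Eif4g1 at 0.55; the other intervals mostly span 0.

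The promoters of Eif4e, Eif4a1 and Eif4g1 are shown because Eif4g1 and Eif4a1 were called in opposite directions, with that of Gspt1, a member called between 2 h and 8 h of NaCl, beside them. The stretches are the 250 bases before the transcription start in RefSeq's GRCm38.p6 annotation, printed on the gene's strand. Capitals mark CACGTG, the E-box that Myc and its relatives bind.

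Eif4e (chr3:138527018-138527267, plus strand): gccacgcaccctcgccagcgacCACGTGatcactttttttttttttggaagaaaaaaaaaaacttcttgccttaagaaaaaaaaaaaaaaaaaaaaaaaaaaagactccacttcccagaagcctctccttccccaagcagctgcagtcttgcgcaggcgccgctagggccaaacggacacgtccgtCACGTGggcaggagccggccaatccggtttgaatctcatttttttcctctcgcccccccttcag

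Eif4a1 (chr11:69672424-69672673, minus strand): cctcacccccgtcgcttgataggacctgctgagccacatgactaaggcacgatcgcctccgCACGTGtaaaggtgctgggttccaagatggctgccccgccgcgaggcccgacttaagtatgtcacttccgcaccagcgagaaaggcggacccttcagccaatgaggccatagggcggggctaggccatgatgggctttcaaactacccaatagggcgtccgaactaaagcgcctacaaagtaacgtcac

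Eif4g1 (chr16:20672477-20672726, plus strand): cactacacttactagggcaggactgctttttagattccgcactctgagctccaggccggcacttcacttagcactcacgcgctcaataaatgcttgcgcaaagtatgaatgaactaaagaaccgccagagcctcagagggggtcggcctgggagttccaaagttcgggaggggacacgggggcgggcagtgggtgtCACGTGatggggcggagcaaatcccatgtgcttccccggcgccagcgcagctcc

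Gspt1 (chr16:11254326-11254575, minus strand): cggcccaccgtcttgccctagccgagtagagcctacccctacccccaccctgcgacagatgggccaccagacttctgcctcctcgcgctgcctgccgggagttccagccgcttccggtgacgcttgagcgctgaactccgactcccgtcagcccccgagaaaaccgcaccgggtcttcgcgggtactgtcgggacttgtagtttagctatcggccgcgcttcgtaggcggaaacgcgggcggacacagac

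CACGTG stands 2 times in the Eif4e stretch, 1 time each in those of Eif4a1 and Eif4g1, and not in that of Gspt1. A further annotated start of Eif4e, chr3:138525941-138526190, has none. The motif is its own reverse complement, so both strands give the same matches. Among 43 members with an annotated promoter, 9 (20.9%) held it: Eef2, Eef2k, Eif3s12, Eif3s5, Eif4a1, Eif4e, Eif4g1, Eif5a and Eif5a2. Over all 27025 genes the share was 6.86%, and over all 32851 promoters 6.02%. TGACGTCA, the full cyclic AMP response element, was in 0 of the 43 against 1.77% of genes, and TGATGNAA, the element that ATF4 dimers bind, searched on both strands, was in 1 (2.33%), Eef2k, against 3.91%.

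Within p38α-/- MEFs, stress against the untreated state of the same genotype called no member by limma. It was 0 of 40 with anisomycin (0 unadjusted), 0 of 38 with TNFα (0 unadjusted) and 0 of 41 with NaCl (5 unadjusted), where 0.0847%, 0.0780% and 1.08% of all genes were called. Unadjusted, all genes gave 579 of 16529, 466 of 15386 and 1714 of 16615. After NaCl, Eef1a2 differed by -0.52 and Eif2ak3 by 0.36 (both adjusted p = 0.188). Eif2ak3 was at 0.39 and 0.41 in untreated p38α-/- MEFs and at 0.74 and 0.78 with NaCl. In wild type NaCl 2 h it was at 0.54 and 0.43.

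The difference of the responses between genotypes, in which the p38α-/- response has its own untreated control and the wild type response has the pool, called 0 of 33 members for anisomycin, 0 of 30 for TNFα and 0 of 41 for NaCl by limma (8, 1 and 5 at an unadjusted p under 0.05), against 0.542%, 0.450% and 0% of all genes. The largest values were those of Eif5a, at 1.92, 1.30 and 1.33, and for NaCl Eif4g1 at 1.01 (adjusted p = 0.105). This difference keeps a probe's constant offset, and Eif5a is among the members whose probes sat mostly below the pool. All genes gave 2252 of 14769 for anisomycin, 1998 of 13780 for TNFα and 2167 of 15939 for NaCl at an unadjusted p under 0.05. With the array number as a block 273 of all genes were called higher and 192 lower for anisomycin. For NaCl that block called 80 higher and 57 lower. Among members it called 1 for anisomycin and 1 for NaCl. Without the second wild type anisomycin array 1 was called, and without the second untreated p38α-/- array 3.

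The kinases that act on eIF2α differed among themselves. Eif2ak3 (PERK) lay between 0.34 and 1.02 on all 12 wild type NaCl arrays and between 0.00 and 0.10 with anisomycin or TNFα without the inhibitor. Eif2ak4 (GCN2), without SB203580, was between -0.16 and 0.09 at 45 min and 2 h of NaCl and at -0.40 and -0.42 at 8 h, and with SB203580 it was at -0.33 and -0.12 at 8 h. Its 8 h minus 2 h difference over both arms was -0.27 ± 0.10 (adjusted p = 0.0725). Eif2ak1 (HRI) lay between -0.27 and 0.15 on all 30 arrays, and its difference was -0.03 ± 0.09. Eif2ak3 was also above the pool without NaCl, at 0.43 and 0.28 with SB203580 alone and at 0.39 and 0.41 in untreated p38α-/- MEFs, both called. Its NaCl response within p38α-/- MEFs was not called (adjusted p = 0.188).

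Of the 4E-BPs, Eif4ebp3 was above the pool on every wild type array measured, between 0.11 and 1.07, and its wild type group means were highest at 8 h of NaCl in both arms. Eif4ebp1 was between -0.53 and 0.58, and its second array was lower than its first in all 5 SB203580 stress groups. Eif4ebp2 was between -0.94 and 0.86, with its 2 NaCl 8 h arrays at 0.63 and -0.20. The gene means of Eif4ebp1 mix probe sets, since probe A_51_P330428 (median 0.36) was marked on 13 arrays and probe A_52_P283674 (median -0.15) on 1. The part of this in the differences between its arrays was not tested. Eif4e, the target of the 4E-BPs, had a gene mean above the pool on all 22 wild type arrays, between 0.08 and 0.99. With marked spots counted, its probe A_51_P131895 was above the pool on only 1 of 30 arrays (median -0.52), and was marked on 17. Its probes A_52_P1035759 and A_52_P310981 were above the pool on 28 and 29 arrays. A constant preference of a probe for 1 dye stays in these levels.

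Over the 15 groups the members' median level stayed between -0.01 and 0.09, while the median of all genes was between -0.02 and 0.00. Among 17104 genes, the group means most like the members' median were those of Abpz (Pearson r = 0.853), Abcg3 (r = 0.851) and Smap1 (r = 0.835), over 15 group means that share the pool.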

How the data were processed

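Total RNA was amplified in 2 rounds, labelled (sample in Cy5, pool in Cy3) and hybridised to 2-colour Agilent arrays. Per the file headers, the authors extracted spots with Agilent Feature Extraction 8.1.1.1 (the submitters' notes name 9.1), with spatial detrending, no local background subtraction and linear and LOWESS dye normalisation. The deposited log10 ratio of processed Cy5 to Cy3, multiplied by 3.3219 to give log2, was the main measure. The deposited spot and background intensities served for saturation, background and a normexp correction (offset 50) with loess, and the authors' deposited series matrix, of log2 scale as judged from its values, served as an alternative.

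Control spots and spots marked as outliers were left out, and the probes kept were averaged to a gene. limma 3.58.1 in R 4.3.3 fitted 15 group means over 30 arrays, with Benjamini-Hochberg adjustment over all genes tested and calls at an adjusted p under 0.05; the script was tested on simulated data. Tables were made in Python 3.11.15 (pandas 2.3.3, numpy 2.4.6; scipy 1.17.1 for intervals) and plots with matplotlib 3.10.9. The study calls the 2 arrays of a group independent experiments. Their number limits the precision, and no count depth exists for arrays. A group's sample numbers came from its titles, and no column of unknown sample was used.

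Of the 56 members 54 were matched to RefSeq by accession. The members and lists were chosen with earlier results of these data known, so no count over them is independent support. Named with values were the up to 12 called members with the largest difference in each comparison, Eef1a1, Eef2, Gspt1, Gspt2, the Eif2ak kinases, Eif4e and the 4E-BPs, members whose probes differed by over 1 log2 unit in a wild type stress group, members saturated or not well above background in a whole group, and the 3 genes most like the members' median. Other names were chosen after their values were seen.

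Same-numbered arrays deviated together within each genotype (wild type 55 of 55 pairs with r above 0.1, median 0.458; p38α-/- 6 of 6, median 0.246) and not across genotypes (6 of 44, median -0.005), so the array number was fitted as a block within genotype as an alternative. The other alternatives were the normexp correction, the series matrix, the brightest probe of a gene, spots well above background only, outlier spots kept, single probes, and leaving out each array in turn. The scanning day as a block, the SB203580 arm and both-arm time contrasts, and centring each probe first were added after the data were seen. No sequence of probes or proteins was used here.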

Additional observations from a re-analysis of the deposited data

Results flagged for a closer look

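The response to TNFα differed between the genotypes for probe A_51_P120201 of Eif5a, tested alone. The response of p38α-/- MEFs against their own untreated state minus the response of wild type MEFs against the pool was 0.838 ± 0.163 (SE, limma adjusted p = 0.0459). This contrast keeps the constant offset of the probe, which lay between -0.87 and -0.11 on all 30 arrays, and the part of that offset in the difference was not tested. For the mean of the Eif5a probes the same difference was 1.30 and was not called.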

How the results depend on the processing

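The total of 49 calls against the pool became 115 with the series matrix and 108 with outlier spots kept, both of which tested 392 in place of 275 member values. The array number as a block raised the 3 calls of NaCl over time to 5, the 9 calls over both arms to 15, the 4 of the SB203580 arm to 7, the 5 of the knockout to 8, and the 0 calls of 2 h minus 45 min over both arms and of the difference of responses to 1 and 2; it moved no other count of calls by over 1.5 times except those given for anisomycin, TNFα and NaCl 45 min. The series matrix gave 7 calls in the SB203580 arm, 1 for 2 h minus 45 min over both arms, 10 for the knockout and 11 for the difference of responses, and outlier spots kept gave 2, 8 and 13 for the last 3. The knockout gave 3 with normexp and 0 with the brightest probe, and the difference of responses 2 and 1. Taken alone, probe A_52_P647408 of Gspt2 at NaCl 8 h turned to -0.067 (adjusted p = 0.901) and probe A_52_P17422 of Eif2c4 over both arms to 0.019 (adjusted p = 0.972). The array number as a block also raised the calls over all genes in every comparison counted. The causes of these moves were not tested.

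Leaving out 1 array at a time gave 0 to 3 calls for NaCl over time, 0 to 2 for the SB203580 arm, 4 to 9 over both arms, 0 to 2 for 2 h minus 45 min over both arms, 38 to 52 against the pool, 6 to 11 for NaCl 8 h, 0 to 5 for the knockout and 0 to 3 for the difference of responses. The difference between arms, the SB203580 effect and the stress responses within p38α-/- MEFs stayed at 0 calls under every alternative run. For single called members, 349 values under other settings kept their call and 48 lost it, and 110 and 145 when 1 array was left out. On a single probe or with probes centred first, counted together, 90 kept it and 39 lost it, with 2 reversed as above. With 2 arrays per group, a call resting on 1 array could not be told from a difference between groups.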
